A study of Mus musculus with 6 samples.

Results

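Retinoic acid synthesis and signalling is represented here by 9 genes, namely the synthesising enzymes Aldh1a1, Aldh1a2 and Aldh1a3, the cellular retinoic acid binding proteins Crabp1 and Crabp2, the nuclear receptors Rara, Rarb and Rarg, and the degrading enzyme Cyp26b1. They were taken by gene name from 30154 genes or unnamed transcripts on a whole-genome Agilent array, where they have 12 probes. RNA came from side population cells of the anterior pituitary of female mice, which export Hoechst dye and were sorted without the cells highest in the surface antigen Sca1. Every mouse carried an inducible diphtheria toxin receptor (iDTR), which a Cre recombinase switches on, and all were given diphtheria toxin, with a dose of 4 ng for each g of mouse and 2 injections daily. GHCre/iDTR mice also carry a growth hormone Cre driver, so that toxin is directed at growth hormone cells, and -/iDTR controls lack that driver. The 6 arrays comprise GHCre/iDTR after 3 days of toxin (2 arrays), -/iDTR after 3 days (2 arrays), GHCre/iDTR after 10 days (1 array) and -/iDTR after 10 days (1 array). Mouse age and the number of animals behind a sort are not given in the sources used here. The comparisons address how the stem cell side population responds while growth hormone cells are ablated.

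Retinoic acid is made from vitamin A inside cells. Retinol is oxidised to retinal by retinol dehydrogenases, and retinal to retinoic acid by the aldehyde dehydrogenases of the ALDH1A family. Retinoic acid is bound in the cytoplasm by CRABP proteins, of which CRABP2 carries it to retinoic acid receptors. These receptors act as heterodimers with retinoid X receptors on response elements in DNA. CYP26 enzymes of the cytochrome P450 family break retinoic acid down. In the developing and adult rodent pituitary, ALDH1A enzymes are known to mark cells near the marginal zone, where progenitors reside.

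Rarb is a textbook target of retinoic acid, which acts through a response element in its promoter. Promoters from RefSeq (build GRCm38.p6), reaching from 250 bases before to 50 bases after a gene start, were found for 7 of the 9 genes, as 12 sequences. They were searched on both strands for DR5, a direct repeat, with a spacing of 5 bases, of the hexamer AGGTCA or of its variants, namely AGTTCA as one variant, GGTTCA as another variant, and GGGTCA as the last variant. DR5 was present in 1 of these 12 sequences, that of Rarb, and in 0.0974% of all 32851 promoters in the table. Of 57 promoters of 41 other retinoid pathway genes, 1 also held it, that of Cyp26a1, a further retinoic acid degrading enzyme. The same repeat with a spacing of 2 bases (DR2) was in 0 of the 12 sequences and in 0.268% of all promoters. AGGTCA alone was in 2 of the 12, 1 each of Rara and Rarg, and in 16.3% of all promoters. A match describes the letters only. The Rarb promoter lies at chr14:16575427-16575726 on the minus strand and the Cyp26a1 promoter at chr19:37697558-37697857 on the plus strand. Both are shown to let the element be seen in its setting, 5′ to 3′ in the direction of the gene, with the DR5 in capitals. In Rarb it begins 53 bases before the gene start and reads along the gene, and in Cyp26a1 it begins 32 bases before the start and reads on the opposite strand.
Rarb: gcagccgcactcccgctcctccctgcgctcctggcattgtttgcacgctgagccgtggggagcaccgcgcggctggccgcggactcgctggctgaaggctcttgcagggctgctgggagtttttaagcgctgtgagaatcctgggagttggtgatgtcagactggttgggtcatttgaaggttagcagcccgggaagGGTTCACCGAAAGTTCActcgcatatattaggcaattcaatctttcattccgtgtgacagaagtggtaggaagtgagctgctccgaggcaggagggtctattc
Cyp26a1: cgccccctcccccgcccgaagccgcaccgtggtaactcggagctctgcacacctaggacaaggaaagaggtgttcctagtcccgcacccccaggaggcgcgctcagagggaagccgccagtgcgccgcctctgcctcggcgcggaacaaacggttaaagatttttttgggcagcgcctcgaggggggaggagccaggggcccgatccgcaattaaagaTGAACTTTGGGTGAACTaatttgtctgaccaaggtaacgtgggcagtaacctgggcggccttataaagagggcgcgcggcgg

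Levels are log2 signal relative to the 75th percentile of the same array, and a level is compared between arrays but not between probes. That percentile lay between 250.6 and 298.5 intensity units on 5 arrays and at 186.1 on replicate 1 of the 3 day controls, where 53.8% of probes were well above background against 61.4% to 65.7% on the other arrays. Gh, the transcript of the targeted cells, was at 5.46 and 2.20 in GHCre mice and 5.69 and 3.65 in controls after 3 days, and at 2.21 in the GHCre mouse sample and 7.86 in the control after 10 days, so it did not separate the genotypes after 3 days. Of 10 pituitary stem and progenitor markers 6 were tested, Sox9 and Lhx3 among them, and Sox2 and Pax6 were not well above background on any array. Free-text descriptions of some samples contradict their titles, and the titles were followed because the genotype and treatment fields match them.

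Aldh1a1 was measured well above background on all 6 arrays and varied less than any other member tested, over a range of 0.62. Its levels after 3 days were 1.54 and 2.00 in GHCre mice, against 1.39 and 1.86 in controls. After 10 days it stood at 1.47 in the GHCre sample and 1.87 in the control. The genotypes overlapped, and the 3 day difference of 0.15 ± 0.46 (SE of the fit, 2 arrays each) did not pass the threshold (adjusted p = 0.957 with limma). The probe lies on chromosome 19 from 20717764 to 20717823 (mm9). Aldh1a7, a close paralogue of Aldh1a1 in the mouse, was not well above background on any array.

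Aldh1a2, the principal retinal dehydrogenase of the embryo, varied far more, over a range of 2.99. GHCre mice had levels of -0.57 and -1.80 after 3 days and controls -3.33 and -1.83. The GHCre values lay above the control values, but replicate 2 of each genotype differed by 0.03 only, whereas replicate 1 of each, on another slide, differed by 2.77. The fitted difference was 1.40 ± 0.79, a fold of 2.64 (adjusted p = 0.854 with limma). Leaving out control replicate 1 it was 0.64, and with normexp background correction 0.55. The 10 day level of Aldh1a2 was -1.17 in the GHCre sample and -0.35 in the control, the highest level of the 6. Its probe lies on chromosome 9 from 71143931 to 71143990 (mm9).

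Aldh1a3, the enzyme prominent in the embryonic eye and nasal region, was not well above background on any array, with levels between -6.52 and -4.77, and was left out of the tests. Its single probe, on chromosome 7 from 73535785 to 73535844 (mm9), therefore gives an upper limit of signal and no difference between genotypes. Of the synthesising enzymes, signal was thus found for Aldh1a1 and Aldh1a2.

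Crabp1, which binds retinoic acid in the cytoplasm, was the only member with all GHCre values below the controls after 3 days. Its levels were 0.68 and 0.24 in GHCre mice, against 0.98 and 0.87 in controls, a difference of -0.47 ± 0.43 (adjusted p = 0.881 with limma). After 10 days it was at -0.56 in the GHCre sample and 0.91 in the control, a difference of -1.46 ± 0.60, or 2.76-fold lower in the GHCre sample (adjusted p = 1 with limma). The control arrays stayed between 0.87 and 0.98 at both times, and the GHCre array of 10 days was the lowest of the 6. Each 10 day group is 1 array, so this difference has no replicate check and its SE is borrowed from the 3 day arrays. Neither difference passed the threshold. The probe lies on chromosome 9 from 54616192 to 54616251 (mm9).

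Crabp2, which carries retinoic acid to its receptors, overlapped between genotypes. It was at 1.16 and 0.00 in GHCre mice and 1.46 and 0.59 in controls after 3 days (difference -0.45 ± 0.65, adjusted p = 0.913 with limma). After 10 days the levels were 0.80 in the GHCre sample and 1.37 in the control. Within each slide and after 10 days the GHCre value was the lower one, by 0.30 on slide 1, 0.59 on slide 3 and 0.57 after 10 days, all within the error of the fit. Its probe lies on chromosome 3 from 87757207 to 87757266 (mm9).

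**Figure D1:**
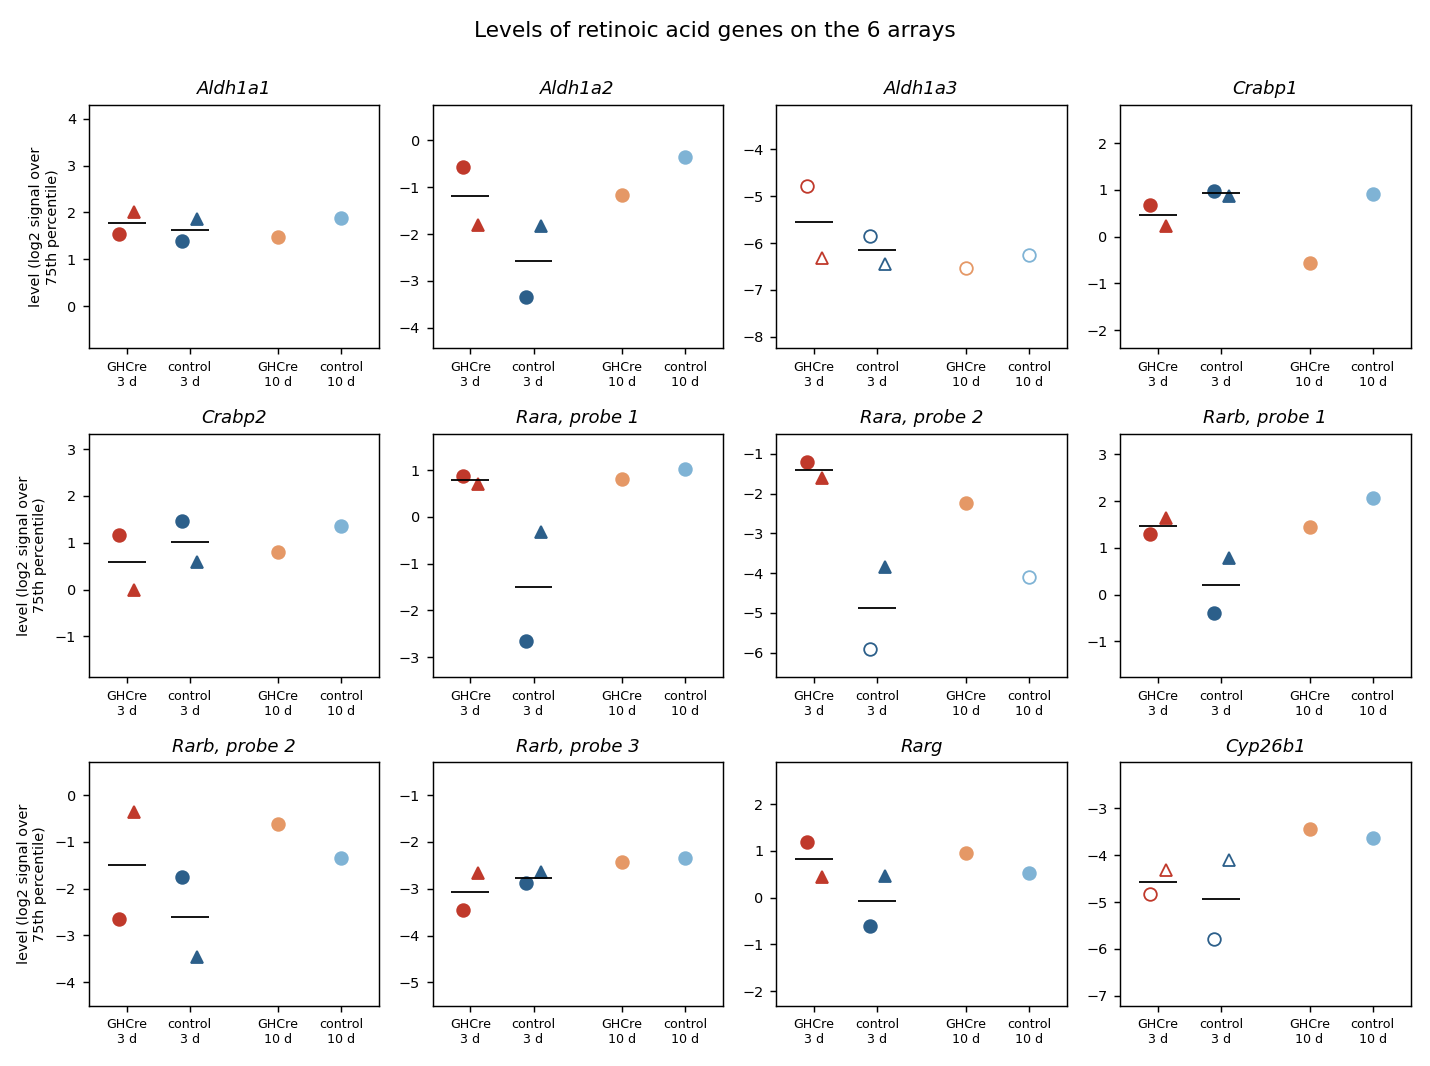
Level (log2 signal over the array's 75th percentile) of the 12 probes of the 9 genes on each of 6 arrays, with GHCre left of control after 3 and 10 days. Circles are replicate 1, triangles replicate 2, open symbols are not well above background, black lines are means of 2 arrays, and each panel has its own axis range. Aldh1a1 stays within 0.62, Rara probe 1 is lowest at -2.66 in replicate 1 of the 3 day controls, and Crabp1 is lowest at -0.56 in the GHCre array of 10 days.

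Among the receptors, Rara and Rarb did not overlap between the genotypes after 3 days and Rarg did. Rara, the receptor expressed in most tissues, was at 0.87 and 0.70 in GHCre mice on its brighter probe, against -2.66 and -0.32 in controls. The GHCre arrays lay close together (0.79 ± 0.12, SD, n = 2) and the controls far apart (-1.49 ± 1.65, SD, n = 2). The fold was 4.85, a log2 difference of 2.28 ± 0.92 that did not pass the threshold (adjusted p = 0.782 with limma). It was 3.53 within slide 1 and 1.02 within slide 3. Without replicate 1 of the controls, the array of lowest overall signal, it was 1.11.

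The other Rara probe, 847 bases away, separated the genotypes in the same direction. Its levels were -1.20 and -1.60 in GHCre mice, against -5.91 (not well above background) and -3.85 in controls. Within slide 3, where both values were measured, the difference was 2.25, and in the fit of every probe it did not pass the threshold (adjusted p = 0.677 with limma). After 10 days the probes parted. The brighter one was at 0.80 in the GHCre sample and 1.01 in the control, whereas the other was at -2.24 in the GHCre sample and -4.10, not well above background, in the control, at least 3.25-fold higher in the GHCre sample. The brighter probe lies on chromosome 11 from 98835350 to 98835409 and the other from 98836197 to 98836256 (mm9), on the plus strand. On the brighter probe the GHCre arrays of 3 and 10 days and the control of 10 days were between 0.70 and 1.01, and only the 3 day controls were lower.

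Rarb, the receptor with the DR5 element shown above, was at 1.29 and 1.65 in GHCre mice after 3 days on its brightest probe, against -0.39 and 0.79 in controls. These values did not overlap and differed by 1.27 ± 0.59, a fold of 2.41 (adjusted p = 0.815 with limma), with 1.68 within slide 1 and 0.86 within slide 3. Leaving out control replicate 1 gave 0.68. After 10 days it was at 1.45 in the GHCre sample and 2.07 in the control, which had the highest level of all arrays. The order from high to low was thus the control of 10 days, both GHCre groups, and the controls of 3 days, and the GHCre level of 10 days minus the GHCre mean of 3 days was -0.02.

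The remaining Rarb probes did not repeat that separation. One that lies 1281 bases away was at -2.65 and -0.35 in GHCre mice and -1.75 and -3.45 in controls after 3 days, with GHCre lower within slide 1 (-0.90) and higher within slide 3 (3.097). The third, 388057 bases away, was at -3.46 and -2.66 in GHCre mice and -2.88 and -2.65 in controls. All 3 were well above background on all 6 arrays. They lie on chromosome 14 from 17263367 to 17263426, from 17264648 to 17264707 and from 17651424 to 17651483 (mm9). The genotypes overlapped on these other probes, and with the mean of all its probes the 3 day difference was 0.69.

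Rarg, a receptor known for its role in skin and cartilage, was at 1.20 and 0.44 in GHCre mice and -0.62 and 0.45 in controls after 3 days. The genotypes overlapped, and the difference of 0.90 ± 0.61 (adjusted p = 0.864 with limma) was 1.81 within slide 1 and -0.02 within slide 3. After 10 days Rarg was at 0.95 in the GHCre sample and 0.52 in the control. Under quantile normalization the 3 day GHCre values of Rarg lay above both controls. Its probe lies on chromosome 15 from 102065371 to 102065430 (mm9).

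Cyp26b1, the degrading enzyme, was not well above background on any 3 day array and was so on both arrays of 10 days. Levels after 10 days were -3.44 in the GHCre sample and -3.64 in the control, a difference of 0.20 ± 1.04. The 3 day arrays, between -5.79 and -4.10, allow no fold between genotypes. The gene passed the filter on dim probes through the 10 day arrays alone. The probe lies on chromosome 6 from 84521952 to 84522011 (mm9). Cyp26a1, the related enzyme whose promoter is printed above, was well above background on 1 array, replicate 2 of the 3 day GHCre group, at -2.67.

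**Figure D2:**
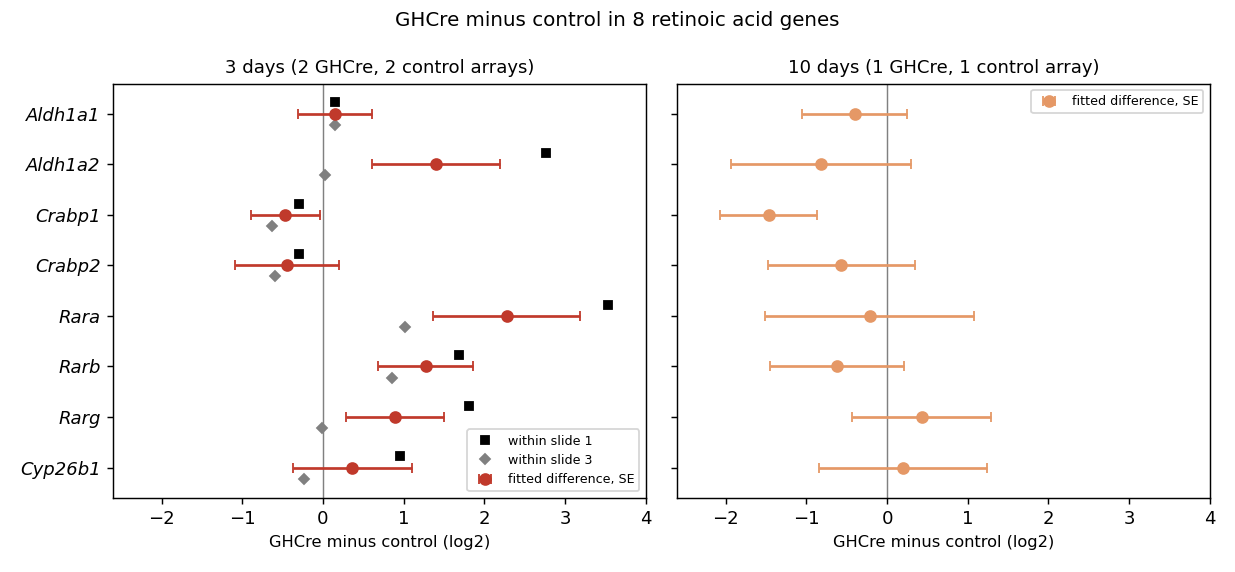
GHCre minus control (log2) for the 8 tested genes after 3 days (left, 2 arrays a group) and after 10 days (right, 1 array a group), as the fitted difference with its SE, squares and diamonds giving the differences within slides 1 and 3. Rara (2.28), Aldh1a2 (1.40) and Rarb (1.27) lie farthest to the right after 3 days with slide 1 values beyond slide 3 values, and after 10 days Crabp1 lies farthest to the left at -1.46.

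Taken as a list after 3 days, 8 of the 9 genes were tested and 0 passed the threshold, as did 0% of all 20934 genes tested with limma. Their unadjusted p was under 0.05 in 0 of 8 cases, against 6.57% of all genes. Among the 8, 3 had both GHCre values above both controls (Aldh1a2, Rara and Rarb), against 16.6% of all genes, and 1 had both below (Crabp1), against 21.3%. Without Cyp26b1, which had no measured 3 day level, 7 genes were well above background on all 6 arrays. Of these 5 had fitted differences above 0, with a median of 0.90, where 43.0% of all such genes were above 0 with a median of -0.11. For 5 of the 7 the lowest array was replicate 1 of the 3 day controls, the array of lowest 75th percentile, against 17.8% of all such genes. The part of its lower signal in the differences was not tested. In bulk RNA, fewer cells of a type and less RNA per cell cannot be told apart.

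After 10 days 2 of the 8 differences were above 0 (Rarg and Cyp26b1) and 6 below, with a median of -0.48, against 49.9% above 0 and a median of 0.00 over all genes. The call rate was again 0 of 8, and 0% over all genes, with an unadjusted p under 0.05 in 0 of 8 and in 3.01% of all genes. The GHCre effect of 10 days minus that of 3 days was below 0 for the 7 genes well above background on all 6 arrays, with a median of -0.997, against 46.0% below 0 and a median of 0.08 over all such genes. It reached -2.49 ± 1.59 for Rara, -2.22 ± 1.37 for Aldh1a2 and -1.89 ± 1.01 for Rarb, with adjusted p = 1 for each (limma), and 0 of 8 genes and 0% of all genes passed, with 3.94% of all genes at an unadjusted p under 0.05. On their tested probes these 3 genes had GHCre values above the controls after 3 days and below after 10 days. So did 8.18% of all genes, and 17.7% lay on opposite sides either way. The other Rara probe was at least 3.25-fold higher in the GHCre sample after 10 days, and the other Rarb probes overlapped after 3 days. On the tested probes of the 3 genes it was the control level that differed more between the times. The 10 day control minus the 3 day control mean was 2.50 for Rara, 2.23 for Aldh1a2 and 1.87 for Rarb. In GHCre the same difference was 0.01 for Rara, 0.01 for Aldh1a2 and -0.02 for Rarb. The 3 day control mean includes replicate 1, the lowest of the 6 arrays for each of these genes. Control replicate 2 was at -0.32 for Rara, -1.83 for Aldh1a2 and 0.79 for Rarb. The 10 day control was at 1.01 for Rara, -0.35 for Aldh1a2 and 2.07 for Rarb. The 10 day control array was also the highest of the 6 for 6 of 7 tested hormone cell transcripts, all but Prl. Cga, the common subunit of the pituitary glycoprotein hormones, was at -3.35 in the GHCre sample and 3.88 in that control, and the 10 day median over the 7 was -3.86 with 1 above 0. The part of hormone cell RNA in the retinoid values was not tested. No other array shares a slide with the control of 10 days. Slide and genotype therefore cannot be told apart at that time, nor slide and time among the controls.

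The rest of the pathway was read from 55 further genes in 4 lists, 42 of which were tested. With limma 0 of these passed after 3 days and 6 had an unadjusted p under 0.05, where 6.57% of all genes did. Of these 6, Lrat and Rbp7 were measured on the 3 day GHCre arrays alone, and 3 were well above background on all 6 arrays (Rxra, Ncoa1 and Meis2). Some genes passed the filter on dim probes through the GHCre arrays alone and could only be higher there. Of the 30 genes well above background on all 6 arrays, 18 differences were above 0, and 9 genes had both GHCre values above both controls while 6 had both below, against 15.9% and 25.1% of all such genes, and the median was 0.35.

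Of 8 genes of retinol uptake, carriage and storage 7 were tested, and 3 of these were well above background on all 6 arrays, where Rbp4 was higher without overlap and Fabp5 lower without overlap. Stra6, the membrane receptor that takes up retinol from its plasma carrier, was at 0.02 and -2.07 in GHCre mice and -2.68 and -5.42 in controls, where replicate 2 was not well above background. The fitted difference of 3.02 ± 1.28 (adjusted p = 0.799 with limma) takes in that unmeasured control, and without it was 1.65. With normexp it was 1.12. Rbp4, that plasma carrier, was at 1.95 and 1.04 in GHCre mice and 0.64 and -1.22 in controls, and was well above background on all 6 arrays.

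Lrat, which esterifies retinol for storage, was at -2.59 and -2.57 in GHCre mice, whereas the controls, at -5.87 and -5.85, were not well above background. This makes Lrat at least 2.5-fold higher in GHCre mice (adjusted p = 0.654 with limma), and with normexp background correction its log2 difference was 0.48 in place of 3.28. Rbp7, a cellular retinol binding protein, was at -2.20 and -3.37 in GHCre mice and not well above background in controls, at least 2.17-fold higher (adjusted p = 0.69 with limma). After 10 days neither Lrat nor Rbp7 was well above background in either genotype, at -6.55 for Lrat and -6.54 for Rbp7 in the GHCre sample and -5.84 for Lrat and -6.24 for Rbp7 in the control. Lrat and Rbp7 are among the genes that passed the filter through the 3 day GHCre arrays alone. Fabp5, a fatty acid binding protein that also carries retinoic acid, went the other way, at 1.86 and 1.00 in GHCre mice and 3.09 and 2.48 in controls (-1.35 ± 0.54, adjusted p = 0.780 with limma).

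Of 14 retinol and retinal oxidoreductases tested, 10 were well above background on all 6 arrays, and 7 of these were above 0 after 3 days with a median of 0.30. Rdh10, the main retinol dehydrogenase of the embryo, was at 3.41 and 3.21 in GHCre mice and 2.64 and 1.96 in controls (1.01 ± 0.47, adjusted p = 0.818 with limma), and after 10 days at 3.19 in the GHCre sample and 3.28 in the control. Rdh5, a dehydrogenase best known from the retinal pigment epithelium, differed by 1.76 ± 0.59. Bco2, a carotenoid cleaving enzyme, was well above background on 1 of the 3 day GHCre arrays and on the 10 day GHCre array, and not on any control array. Aldh8a1, an aldehyde dehydrogenase that can oxidise retinal, differed by -1.30 ± 0.73. None of these passed the threshold.

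Of 12 nuclear partners and coregulators 6 were above 0 and 6 below. Rxra, the retinoid X receptor that pairs with retinoic acid receptors in many tissues, was at -2.28 and -2.56 in GHCre mice and -1.42 and -0.60 in controls, a difference of -1.41 ± 0.50 (unadjusted p = 0.0475, adjusted p = 0.759 with limma), and its other probe differed by -1.53. The coactivator Ncoa1 differed by 1.70 ± 0.44 on its brightest probe and by 0.41 and 0.38 on the others, and Ppard, a nuclear receptor, by 2.00 ± 1.06. For Ppard the difference was 3.58 within slide 1 and 0.42 within slide 3, and 0.62 without control replicate 1. Rxrb and Rxrg, the other retinoid X receptors, differed by 0.84 ± 0.69 and -0.24 ± 0.50. For Rxrb it was 1.64 within slide 1 and 0.03 within slide 3.

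Of 15 retinoic acid responsive genes 9 were tested, and Hoxb1, Hoxa5, Cdx1, Stra8 and Rarres1 were not well above background on any array. Meis2, a homeobox gene induced by retinoic acid in embryonic cells, was at -2.14 and -1.69 in GHCre mice and 0.00 and 0.85 in controls after 3 days, and at -2.25 in the GHCre sample and 0.12 in the control after 10 days. The differences were -2.34 ± 0.52 after 3 days and -2.37 after 10 days, and neither comparison passed the threshold (adjusted p = 0.693 after 3 days with limma). All 3 GHCre arrays lay below all 3 controls. The share of all genes with that order was not counted, and on the 3 day arrays alone 21.3% of all genes were lower without overlap. Meis2 was named for the lowest unadjusted p of its list after 3 days. Its relative Meis1 was at -2.12 and -2.42 in GHCre mice and not well above background in the 3 day controls, at least 3.02-fold higher on the processed signal, whereas normexp gave a log2 difference of 0.32. Tgm2, a transglutaminase induced by retinoic acid, differed by 1.21 ± 0.61, and Rarres2, which encodes the chemoattractant chemerin, by 0.73 ± 0.50. Members of this list thus differed in both directions.

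**Figure D3:**
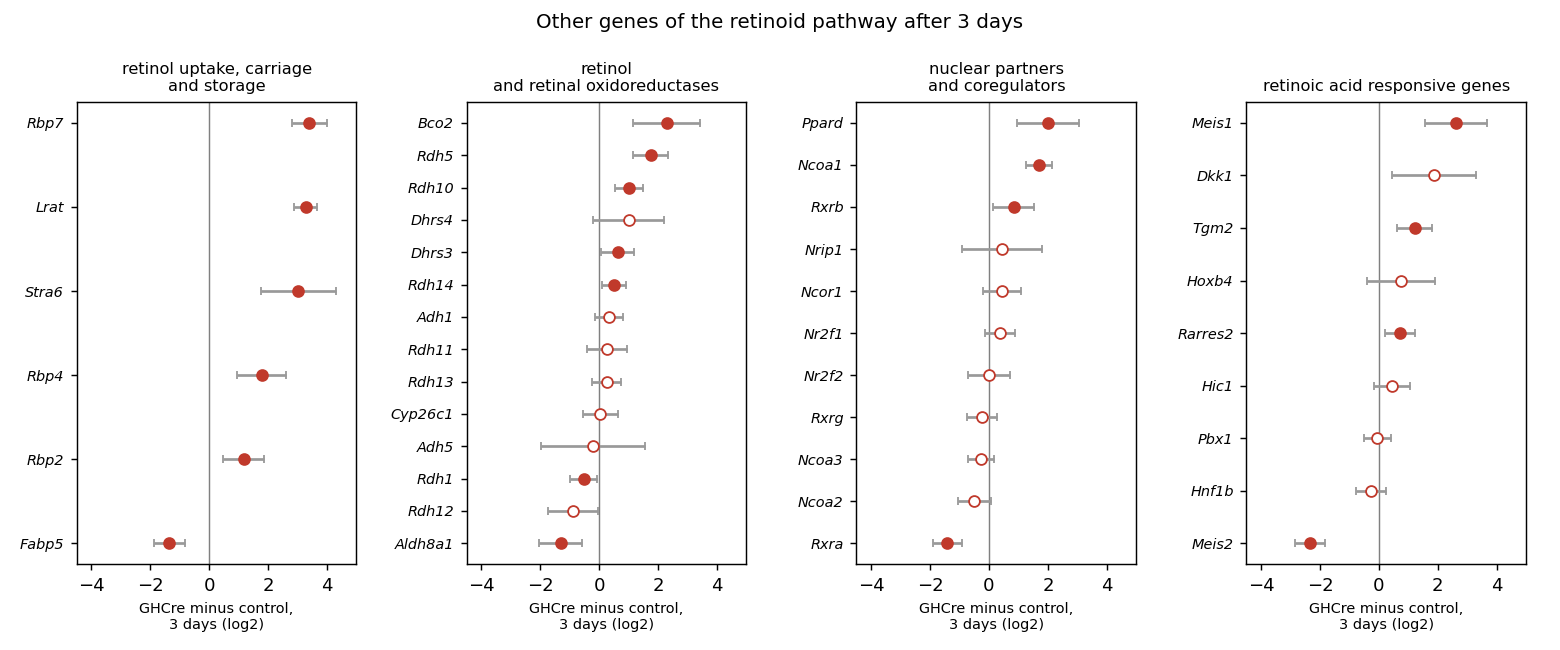
GHCre minus control after 3 days (log2 difference, bars give the SE of the fit, 2 arrays a group) for 40 tested genes of 4 retinoid pathway lists. Filled points mark genes whose GHCre and control values do not overlap. In the list of uptake, carriage and storage Stra6 (3.02) lies to the right and Fabp5 (-1.35) to the left, and Meis2 (-2.34) is the lowest of the responsive genes.

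Markers of other cell types also differed between the genotypes after 3 days, without passing the threshold. Of 13 fibroblast, mural and meningeal markers, all tested, 13 were above 0, against 48.0% of all genes, and 9 were higher without overlap, against 16.6%. Of the 12 well above background on all 6 arrays 8 were higher without overlap, against 15.9% of all such genes, with Foxc2 at 2.17 ± 0.52 and Des at 2.05 ± 0.49. The summed signal of the 13, in multiples of the 75th percentile, was 286 and 235 in GHCre mice and 213 and 142 in controls after 3 days. After 10 days it was 177 in the GHCre sample and 182 in the control. By gene, 3 of the 13 were above 0 after 10 days, with a median of -0.51, against 49.9% of all genes. The summed signal of 4 lymphocyte markers was 15.8 and 13.8 in GHCre mice, against 7.6 and 6.12 in controls, with Cd79b and Ms4a1 not well above background on any array. For 7 macrophage and myeloid markers it was 149 and 151 in GHCre mice, against 226 and 189 in controls, and 3 of the 7 differences were above 0 and 4 below. Itgam, at 6.999 and 7.03 in GHCre mice and 7.59 and 7.32 in controls (log2), makes up most of that sum. The 3 differences above 0 were those of Ptprc, Adgre1 and Lyz2, at 0.25, 0.26 and 0.20. Of the 5 well above background on all 6 arrays, 3 were lower without overlap, Itgam among them, against 25.1% of all such genes. Higher without overlap were 0 of the 5, against 15.9% of all such genes. Of 6 folliculostellate markers 5 were above 0 after 3 days and 4 were higher without overlap, against 16.6% of all genes. Of the 5 well above background on all 6 arrays, 3 were higher without overlap, against 15.9% of all such genes. Slc1a3, not well above background in the 3 day controls, was at least 2.75-fold higher and could only be higher at that time. After 10 days 1 of the 6 was above 0, the median was -1.21, and Slc1a3 was at least 4.75-fold lower in the GHCre sample. For 7 endothelial markers the summed signal after 3 days was 6.93 and 5.88 in GHCre mice, against 4.72 and 4.46 in controls. Of the 7, 6 differences were above 0 and 1 below, and 3 were higher without overlap, against 16.6% of all genes. Of the 4 well above background on all 6 arrays, 2 were higher without overlap, against 15.9% of all such genes. The part of these cell types in the retinoid values was not tested.

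Genes with levels most like Aldh1a1 over the 6 arrays included Cdh8 (Pearson r = 0.988) and Pole3 (r = 0.984), each with a Spearman rho of 0.943. Those most like Aldh1a2 were Usp25 (r = 0.989), Lmbr1l (r = 0.986) and Lacc1 (r = 0.982), each with a rho of 1.0. They are among the highest of all genes tested with a symbol, with 26 genes over 0.95 for Aldh1a1 and 44 for Aldh1a2. The same 6 arrays, with their differences in depth and slide, underlie every one of these correlations, which are given as a description without a test.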

How the data were processed

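The authors' scanner files carry 1 colour. Per the file headers they come from Feature Extraction 10.7.3.1 by Agilent, with spatial and multiplicative detrending switched on, and their processed signal is an intensity on a linear scale. Per the labels, 1 ng of RNA from 25000 to 50000 sorted cells was amplified before labelling. Log2 values in the authors' deposited series table correlated at 0.9999 at the lowest with quantile normalized scanner signal. Spots of a probe were averaged without flagged spots, and each array was divided by its 75th percentile. Of 39429 probes, 27234 were named through an accession, 4141 through a symbol or synonym, and 8054 kept the name in the file. Each gene took the values of its brightest probe on average, and was tested if it was well above background on at least 2 of 6 arrays, which left 20934 genes. No spot was saturated. A model with a mean for each of 4 groups was fitted with limma 3.58.1 in R 4.3.3, with Benjamini-Hochberg adjustment over all genes and a threshold of 0.05. It has 2 residual degrees of freedom, all from 3 day arrays, and p-values measure only the spread between these samples. An exact permutation of 2 against 2 arrays cannot go below p = 0.333. The lowest adjusted p of any gene after 3 days was 0.654 with limma. With so few arrays the threshold was hardly within reach, so missing it does not show that a gene was unchanged. The members and lists were chosen with earlier results of these data known. Named are every member, up to 4 genes of lowest unadjusted p in each pathway or marker list, those needed to state a defining marker, Gh and Prl, and the 3 tested genes most like Aldh1a1 and Aldh1a2. Rbp4, Ptprc, Adgre1, Lyz2, Rxrb, Rxrg, Aldh1a7 and Cyp26a1 were added after their values were seen, and a few genes under the rule are not reported here. A fold against a group not well above background uses the higher of its own signal and the lowest signal well above background per array, and is written as at least that fold. Alternatives were other normalizations, background corrections, filters, probe rules, variance priors and blocks, and leaving out each 3 day array. Figures were drawn with matplotlib 3.10.9.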

Additional observations from a re-analysis of the deposited data

Results flagged for a closer look

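For 3 of the 8 tested members, on the tested probe, every 3 day GHCre value lay above every control value and the 10 day GHCre value lay below its control. The other Rara probe, at least 3.25-fold higher in the GHCre sample after 10 days, did not show this order. Nor did the other Rarb probes, which overlapped after 3 days. The GHCre effect of 10 days minus that of 3 days was -2.22 for Aldh1a2, -2.49 for Rara and -1.89 for Rarb. Over all genes tested, 8.18% showed that order and 17.7% showed it or its reverse. Among the named genes of the pathway the same difference was -3.04 for Stra6, -3.70 for Rbp7, -3.99 for Lrat, -2.59 for Rdh5, -1.10 for Rdh10, -2.20 for Ppard, -2.42 for Ncoa1, -1.10 for Rarres2 and -3.89 for Meis1. Lrat and Rbp7 were measured on the 3 day GHCre arrays alone, as was Tbx18 below, so that their values are set by background on the other 4 arrays and the filter on dim probes, and they add nothing to the members' order. Stra6, Rdh5 and Meis1 were also not well above background on 1 or 2 arrays. It ran the other way for Rxra (1.81). Of the marker genes named, it was -3.51 for Des, -2.68 for Foxc2, -2.92 for Tbx18 and 0.92 for Prl. The named genes were taken for a low p after 3 days, so their share cannot be set against that of all genes. Tested as a difference of effects with limma, none of these passed the threshold, and each rests on 1 array a genotype after 10 days.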

How the results depend on the processing

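With limma, 0 genes passed in any of 14 alternatives and in any of the 3 comparisons, and between 784 and 2286 genes had an unadjusted p under 0.05 after 3 days. With so few arrays a call was hardly within reach, so the lack of calls in every alternative does not measure how stable the differences are. Leaving out single 3 day arrays moved the 3 day difference between 1.11 and 3.45 for Rara, 0.68 and 1.86 for Rarb, 0.64 and 2.15 for Aldh1a2, 0.36 and 1.43 for Rarg, and -0.69 and -0.24 for Crabp1. It turned the sign for Aldh1a1 (-0.088 to 0.383), Crabp2 (-1.03 to 0.14), Cyp26b1 (-0.49 to 1.21) and Gh (-2.47 to 0.78). The change of the effect between 10 and 3 days ran from -0.70 to 0.46 for Crabp2, -1.003 to 0.068 for Rarg and -1.01 to 0.69 for Cyp26b1. Normexp turned Cyp26b1 to -0.31 after 3 days and 0.355 for that change. The mean of all probes gave 0.82 for Rara and 0.009 for Rarb after 10 days. Under normexp the 3 day difference was 0.55 for Aldh1a2, 0.48 for Lrat, 0.58 for Rbp7, 1.12 for Stra6, 0.32 for Meis1, 0.42 for Bco2, 0.68 for Rdh5, 0.79 for Ncoa1, -0.87 for Rxra, -0.85 for Aldh8a1, 1.34 for Des and 0.52 for Tbx18, each over 1.5 times smaller. The 3 day median of the 42 other pathway genes was 0.46 in the main fit, 0.19 with normexp, and from 0.17 to 0.81 with single arrays left out. Over all genes tested the median was -0.04 in the main fit, -0.15 with normexp, and from -0.12 to 0.02 with single arrays left out. Some of the 42, Lrat, Rbp7 and Bco2 among them, passed the filter through GHCre arrays alone. Such genes could only be higher there, so the list median is not a test of the list. Under quantile normalization 4 members were higher without overlap on the tested probe, Rarg beside Aldh1a2, Rara and Rarb. The Rarb probe 388057 bases away was lower without overlap under that setting. The share of all genes was not counted there, so the 4 cannot be set against it. With the replicate block, which after 3 days is the slide block too, 0 genes passed, and Rara kept 2.28 ± 0.84 (adjusted p = 0.692). Deviations of same-numbered samples correlated at 0.0878. These samples share a number and a slide, and the correlation does not show whether they share more. The slide block could not be fitted for the 10 day comparison. The cause of these shifts was not tested. Aldh1a3 and the 3 day values of Cyp26b1 are limited by signal over background.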
